A study of Mus musculus with 24 samples.

Results

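The 10 genes described here encode proteins that set off or restrain mitochondrial apoptosis and necroptosis, chosen by symbol: Mcl1, Bcl2l1, Bcl2l11, Bid, Bmf, Pmaip1 and Bak1 of the BCL2 family, and Ripk1, Ripk3 and Mlkl of the necroptosis pathway. They are 10 of 50657 genes counted in livers of mice that carry a deletion of Egfr in hepatocytes (KO) and of wild-type mice (WT), in an experiment with an overdose of acetaminophen (APAP, 500 mg/kg). Livers were taken at 0, 1, 3 and 12 h, from 3 individual mice in each of the 8 groups KO 0 h, KO 1 h, KO 3 h, KO 12 h, WT 0 h, WT 1 h, WT 3 h and WT 12 h, and each liver gave 1 library of polyA RNA. The 0 h group is the baseline of both genotypes; whether its mice received a vehicle, the Cre driver, the strain, the sex and the age were not given in the sources used here. In KO livers the cells other than hepatocytes are not targeted by the deletion.

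Apoptosis through mitochondria is governed by the BCL2 family. The guardians MCL1 and BCL-xL (Bcl2l1) hold the pore former BAK (Bak1) in check, while the BH3-only proteins BIM (Bcl2l11), BID, BMF and NOXA (Pmaip1) bind the guardians or activate the pore formers once they are induced or cleaved. Hepatocytes rely on MCL1 and BCL-xL to survive. Necroptosis is a lytic death in which the kinase RIPK1 engages the kinase RIPK3, and RIPK3 phosphorylates MLKL, which then breaches the plasma membrane; RIPK1 is also a scaffold of survival signalling below the TNF receptor. APAP overdose damages hepatocyte mitochondria through a reactive metabolite, and the resulting death is mainly necrotic.

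At 12 h, 4 of the 8 genes that could be tested were higher than at 0 h in both genotypes: the guardians Mcl1 and Bcl2l1, the BH3-only gene Bcl2l11 and the kinase gene Ripk1. In KO livers their levels at 12 h were 2.61, 2.31, 3.10 and 1.75 times those at 0 h, and in WT livers 2.45, 2.06, 3.29 and 1.96 times, in the same gene order. The call of Bcl2l1 was lost in 1 of 15 alternatives in KO livers and in 5 of 15 in WT livers. Of all 13204 tested genes, 15.1% in KO and 13.4% in WT livers were called higher at 12 h. Bcl2l11 was also higher at 3 h, 1.60-fold in KO livers and 1.81-fold in WT livers, a time at which 5.11% (KO) and 7.28% (WT) of all genes were called higher. In bulk tissue, fewer cells of a type and less RNA per cell cannot be told apart. Bid, Bak1, Bmf and Mlkl passed in no comparison, and no gene of the 8 was called lower at any time or different between KO and WT livers. Ripk3 and Pmaip1 had at most 3 and 6 reads in a library and could not be tested.

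Levels are read counts relative to library size, in CPM, scaled by the trimmed mean of M values (TMM), and fold changes, standard errors (SE), 95% intervals and adjusted p come from edgeR's quasi-likelihood test over 13204 genes with Benjamini-Hochberg adjustment, called at 0.05. CPM is not scaled by gene length, so levels are compared between livers and not between genes. The p-values rest on the spread between individual mice within groups. That spread was estimated over all 8 groups together and drawn toward that of other genes, and not taken from the compared groups alone.

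Counts on genes ran from 3.54 to 4.74 M per library at 12 h and from 4.43 to 7.58 M at 0 to 3 h, so 3 reads were worth 0.373 to 1.05 CPM. Mitochondrial ribosomal RNA took 44.8% to 50.4% of the counts at 12 h and 39.6% to 43.2% earlier, and the TMM factors were 0.814 to 0.971 at 12 h and 1.00 to 1.14 earlier. Scaling by library size alone lowered the median log2 change of all genes at 12 h by 0.259 (KO) and 0.367 (WT). With it the log2 change at 12 h was 1.11 in KO and 0.94 in WT livers for Mcl1, 1.37 and 1.36 for Bcl2l11, and 0.54 and 0.62 for Ripk1, each still called. Egfr, the targeted gene, lay at 59.5 to 110 CPM in KO livers and 334 to 461 CPM in WT livers at 0 h. At 3 h the ranges were 82.3 to 271 CPM in KO and 303 to 633 CPM in WT livers, and at 12 h they were 43.0 to 117 CPM in KO and 203 to 263 CPM in WT livers. At 1 h the range was 136 to 335 CPM in KO and 332 to 407 CPM in WT livers, where the library labelled KO 1 h replicate 1 stood at 335 CPM, within the WT range. By edgeR's test of KO vs WT, Egfr itself was not called at any time. Its log2 ratio was -2.25 at 0 h (adjusted p = 0.0946) and -0.87 at 1 h (adjusted p = 0.540). At 3 h it was -1.37 (adjusted p = 0.216), and at 12 h -1.55 (adjusted p = 0.243). Averaged over the 4 times it was -1.51 (adjusted p = 0.0504). Of the WT 3 h libraries, replicate 1 differed from replicates 2 and 3 by 17.1 and 21.6 times the counting variance, against 3.97 times between replicates 2 and 3. The WT 0 h group, the baseline of all WT responses, was uneven too. Its replicate 2 differed from replicates 1 and 3 by 16.8 and 18.1 times, against 4.99 times between replicates 1 and 3. All 6 hepatocyte markers were detected in every group. Their sum was 36813 to 40787 CPM in KO livers at 12 h, against 29476 to 36187 CPM at 0 h (1 marker called higher and 1 lower), and in WT livers 39093 to 43897 CPM at 12 h, against 29590 to 33984 CPM at 0 h (4 called higher and 1 lower). The part of this in the 12 h results was not tested.

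The 4 genes called together at 12 h are shown with the 250 bases before their outermost start in RefSeq (build GRCm38.p6), printed 5′ to 3′ on the gene's strand. Capitals mark matches, on either strand, to the motifs searched: TGANTCA for AP-1, TGACGTCA for the cyclic AMP response element (CRE), CACGTG for the E-box, CCAAT for the box of that name, GGGCGG for the GC box, GTAAACA for FOXO factors, and the NF-kB consensus. No capitals belong to more than 1 motif. The windows lie at chr3:95658471-95658720 on the plus strand (Mcl1), chr2:152831729-152831978 on the minus strand (Bcl2l1), chr2:128125788-128126037 on the plus strand (Bcl2l11) and chr13:34002113-34002362 on the plus strand (Ripk1).
Mcl1: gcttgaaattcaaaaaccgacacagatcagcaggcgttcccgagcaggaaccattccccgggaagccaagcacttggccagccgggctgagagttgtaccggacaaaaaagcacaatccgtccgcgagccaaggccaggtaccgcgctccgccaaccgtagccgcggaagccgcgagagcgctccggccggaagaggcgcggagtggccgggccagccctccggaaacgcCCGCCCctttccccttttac
Bcl2l1: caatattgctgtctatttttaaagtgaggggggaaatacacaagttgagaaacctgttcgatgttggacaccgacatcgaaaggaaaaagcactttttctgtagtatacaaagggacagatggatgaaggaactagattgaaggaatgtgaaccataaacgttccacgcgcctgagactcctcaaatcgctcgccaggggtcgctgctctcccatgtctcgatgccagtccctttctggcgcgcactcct
Bcl2l11: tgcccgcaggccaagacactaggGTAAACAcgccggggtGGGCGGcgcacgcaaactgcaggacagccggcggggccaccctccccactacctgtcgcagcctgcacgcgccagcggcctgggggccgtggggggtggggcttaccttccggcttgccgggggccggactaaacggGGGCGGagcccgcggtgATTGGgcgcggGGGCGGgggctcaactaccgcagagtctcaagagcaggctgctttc
Ripk1: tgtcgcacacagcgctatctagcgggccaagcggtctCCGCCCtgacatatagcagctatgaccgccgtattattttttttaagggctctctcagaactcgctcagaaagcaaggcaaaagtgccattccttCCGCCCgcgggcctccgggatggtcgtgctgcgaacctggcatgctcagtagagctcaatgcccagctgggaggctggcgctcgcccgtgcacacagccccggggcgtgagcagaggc

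The windows of Mcl1, Bcl2l11 and Ripk1 were rich in G and C, at 64.4%, 72% and 60.8%, and that of Bcl2l1 held 47.6%. Mcl1 held 1 GC box, which begins 20 bases before the start. The bases after this RefSeq start were not found near the beginning of a transcript of Mcl1 in the annotation checked. For Bcl2l1, Bcl2l11 and Ripk1 they were. Ripk1 held 2, which begin 213 and 118 bases before it. Bcl2l11 held 3 GC boxes, a CCAAT box 57 bases before the start and a FOXO match 227 bases before it. Among 32851 RefSeq promoter windows of the same length, 32.7% held a GC box, 33.8% a CCAAT box and 3.17% a FOXO match. These windows include inner starts, whereas the 4 genes are shown at their outermost start only. None of the 4 windows held an AP-1 (6.75% of all windows), CRE (1.55%), E-box (6.02%) or NF-kB match (7.25%), and the Bcl2l1 window held no match at all. A match describes letters only, and its absence says nothing of any factor's binding elsewhere. Bcl2l1 has 3 starts in RefSeq, Bcl2l11 and Ripk1 have 2 each, and 9 of the 10 genes had an entry. Windows of inner starts, not shown, did hold matches. That of Bcl2l1 at chr2:152830718-152830967 held 1 NF-kB match. The inner window of Bcl2l11 held 2 CCAAT and 2 GC boxes, and that of Ripk1 held 4 GC boxes.

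**Figure D1:**
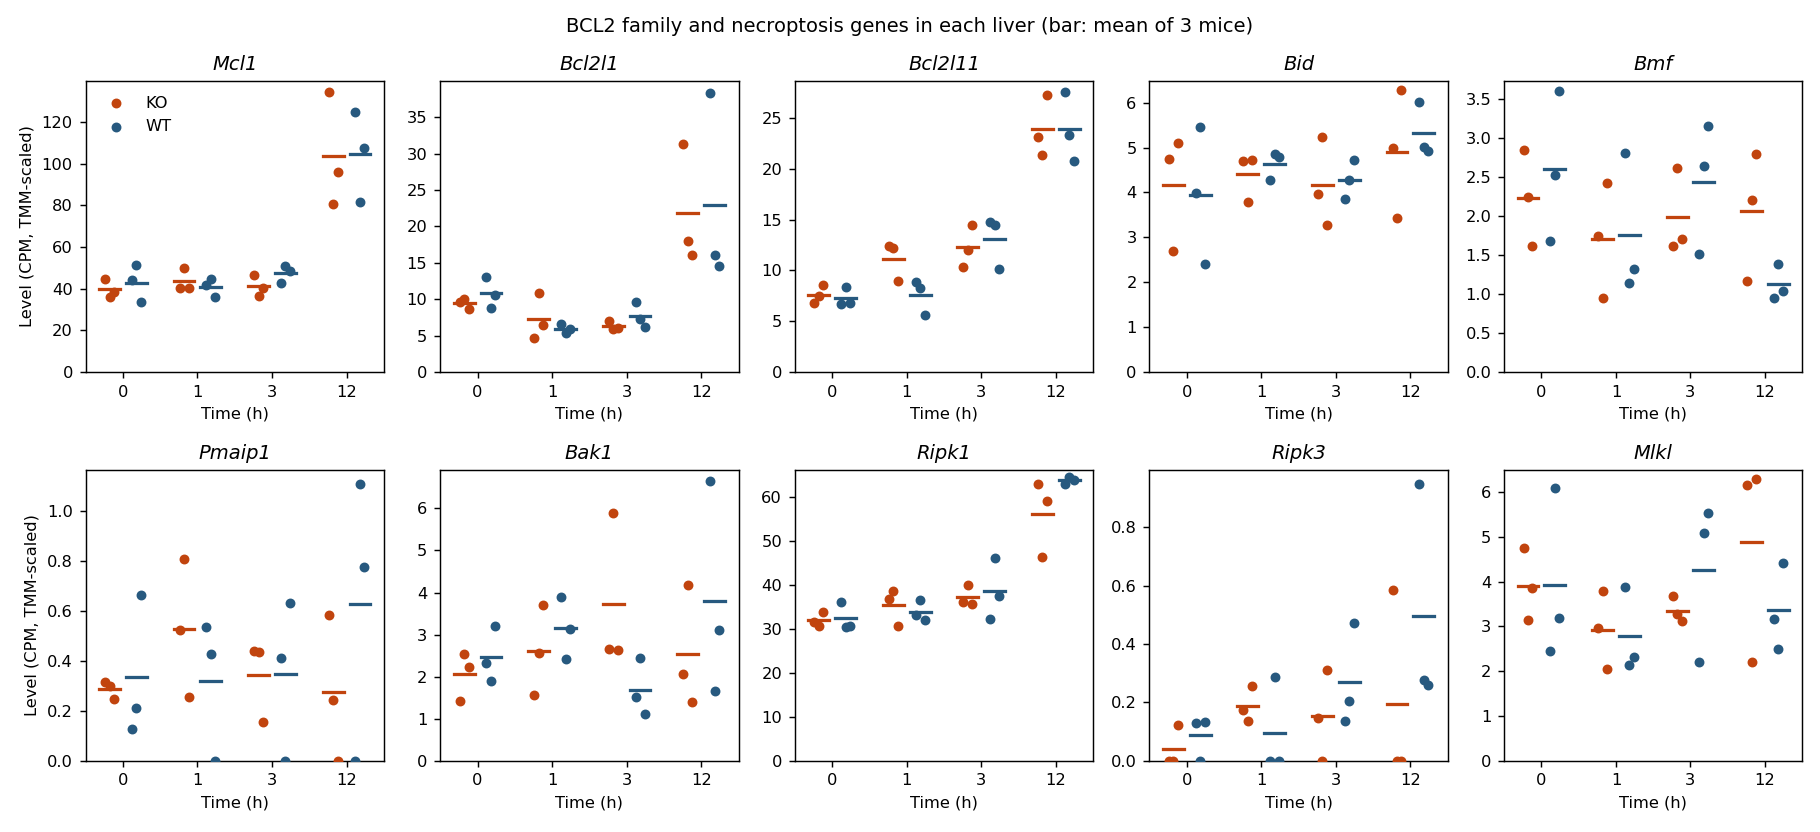
TMM-scaled level (CPM, y axis) of each of the 10 genes at 0, 1, 3 and 12 h (x axis); points are single livers, KO in orange left of WT in blue, and bars are means of 3 mice. For Mcl1, Bcl2l1, Bcl2l11 and Ripk1 all 6 livers at 12 h lie above all 18 earlier livers, as they do for 3.86% of all tested genes, whereas Ripk3 and Pmaip1 have at most 3 and 6 reads in a library.

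Among the guardians, Mcl1 encodes a short-lived anti-apoptotic protein. Its level was 135, 80.8 and 96.0 CPM in KO livers at 12 h, against 44.8, 36.1 and 38.5 CPM in KO livers at 0 h. In WT livers it was 125, 81.7 and 107 CPM at 12 h, against 44.0, 51.3 and 33.6 CPM at 0 h. The 12 h livers of both genotypes were all high, the lowest at 80.8 CPM, and the 18 livers from 0 to 3 h spanned 33.6 to 51.3 CPM, so the times did not overlap. Of all tested genes, 3.86% likewise had all 6 livers at 12 h above all 18 earlier ones, and 41.1% (KO) and 39.9% (WT) had no overlap between 12 h and 0 h libraries in either direction. The mean was 104 ± 27.7 CPM in KO livers at 12 h, against 39.8 ± 4.49 CPM in KO livers at 0 h, a log2 change of 1.38 (SE 0.175, adjusted p = 1.09e-06). In WT livers the mean was 105 ± 21.7 CPM at 12 h, against 42.9 ± 8.90 CPM at 0 h (SD, n = 3 in each group), a log2 change of 1.29 (SE 0.175, adjusted p = 2.91e-06). At 1 and 3 h the log2 changes of Mcl1 were 0.13 and 0.05 in KO livers and -0.07 and 0.15 in WT livers, none of them called.

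Bcl2l1 encodes BCL-xL, the guardian next to MCL1 in hepatocytes. It stood at 31.4, 17.9 and 16.1 CPM in KO livers at 12 h and at 9.66, 10.0 and 8.69 CPM in KO livers at 0 h. In WT livers it stood at 38.3, 16.1 and 14.5 CPM at 12 h, against 13.0, 8.83 and 10.5 CPM at 0 h. In each genotype replicate 1 at 12 h was far above the other replicates, yet every 12 h liver exceeded every earlier one. The log2 change was 1.21 in KO livers (SE 0.323, adjusted p = 0.00761) and 1.05 in WT livers (SE 0.318, adjusted p = 0.0195). Both calls rested on those libraries: without KO 12 h replicate 1 the KO change was 0.85 (adjusted p = 0.0736), and without WT 12 h replicate 1 the WT change was 0.49 (adjusted p = 0.227). The call in WT livers did not hold either when WT 0 h replicate 2 or 3 was left out (0.94 and 1.00, adjusted p = 0.0635 and 0.0625), with only the 2 groups in the fit (1.06, adjusted p = 0.073) and with scaling by library size alone (0.70, adjusted p = 0.0983).

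Earlier, Bcl2l1 levels were 4.70, 10.8 and 6.50 CPM in KO livers and 6.56, 5.42 and 5.95 CPM in WT livers at 1 h. At 3 h they were 7.07, 5.88 and 6.07 CPM in KO livers and 9.64, 7.31 and 6.15 CPM in WT livers. The WT livers at 1 h all lay below the WT livers at 0 h, whereas the KO livers at 1 h straddled those at 0 h. In WT livers at 1 h the log2 change was -0.87 (adjusted p = 0.148). This missed the threshold, but it passed when genes of low count were kept (-0.85, adjusted p = 0.0111) or when only the WT 1 h and WT 0 h libraries were fitted (-0.87, adjusted p = 0.00881). Of all tested genes, 24.7% likewise had no overlap between WT 1 h and WT 0 h libraries. The fitted change of Bcl2l1 in KO livers was -0.34 at 1 h and -0.56 at 3 h, and in WT livers -0.49 at 3 h, none called.

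Among the BH3-only genes, Bcl2l11 was the one called. It encodes BIM, which binds all guardians and can activate the pore formers. In KO livers it stood at 6.81, 7.46 and 8.57 CPM (0 h), 12.4, 12.2 and 8.93 CPM (1 h), 10.3, 12.0 and 14.5 CPM (3 h), then 23.2, 21.4 and 27.2 CPM (12 h). In WT livers it stood at 6.70, 8.41 and 6.80 CPM (0 h), 8.84, 8.27 and 5.62 CPM (1 h), 14.7, 14.4 and 10.1 CPM (3 h), then 27.5, 23.3 and 20.7 CPM (12 h). In both genotypes all 3 h livers were above all 0 h livers, and all 12 h livers were above all others; of all tested genes, 30.8% (KO) and 28.6% (WT) had no overlap between 3 h and 0 h libraries, and more had none between 12 h and 0 h, as given for Mcl1. At 12 h the log2 change was 1.63 in KO livers (SE 0.191, adjusted p = 8.73e-08) and 1.72 in WT livers (SE 0.194, adjusted p = 4.4e-08). At 3 h it was 0.68 in KO livers (SE 0.194, adjusted p = 0.0217) and 0.86 in WT livers (SE 0.195, adjusted p = 0.00273).

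The 3 h call of Bcl2l11 in KO livers was lost without KO 0 h replicate 1 (0.61, adjusted p = 0.093), KO 0 h replicate 2 (0.68, adjusted p = 0.057) or KO 3 h replicate 3 (0.55, adjusted p = 0.151). The 3 h call in WT livers held under every alternative, with a log2 change of 0.75 to 1.03, the highest when WT 3 h replicates 2 and 3, the libraries that stand apart from replicate 1, were both left out. That fit keeps 1 WT 3 h library, which is assumed to vary like the other groups. At 1 h the KO livers had a log2 change of 0.53 (adjusted p = 0.0855), which was not called, although it was without KO 1 h replicate 3 (0.70, adjusted p = 0.0379). Without the library labelled KO 1 h replicate 1 it was 0.48 (adjusted p = 0.174). The WT livers at 1 h had a change of 0.09 (adjusted p = 0.88).

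Bmf encodes a BH3-only protein linked to the cytoskeleton in healthy cells. It was counted with 3 to 9 reads per library at 12 h and 7 to 27 reads earlier. Its level was 1.17, 2.21 and 2.79 CPM in KO livers at 12 h, against 2.85, 2.24 and 1.61 CPM in KO livers at 0 h. In WT livers it was 0.949, 1.39 and 1.04 CPM at 12 h, against 1.68, 2.52 and 3.60 CPM at 0 h. The WT livers at 12 h were all below the WT livers at 0 h, and the KO livers of both times overlapped. The fitted log2 change was -0.11 in KO livers (95% interval -1.03 to 0.80) and -1.19 in WT livers (95% interval -2.20 to -0.17, adjusted p = 0.0788), so neither was called. The WT value passed without WT 0 h replicate 1 (-1.45, adjusted p = 0.0429) and with scaling by library size alone (-1.55, adjusted p = 0.0138). No overlap between WT 12 h and WT 0 h libraries was common, at 39.9% of all tested genes.

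Bid encodes a BH3-only protein that caspase-8 cleaves to link death receptors to mitochondria. It spanned 2.40 to 6.29 CPM over all 24 livers, on 14 to 41 reads each. Its log2 change at 12 h was 0.19 in KO livers (95% interval -0.41 to 0.79) and 0.47 in WT livers (95% interval -0.13 to 1.07). For Bid 81.7% of the stranded reads lay on the gene's own strand, so part of its unstranded count may belong to the other strand. In WT livers its own strand held 10, 13 and 13 reads at 12 h and the other strand 9, 5 and 6. At 0 h these were 30, 25 and 15, and 1, 1 and 3. In KO livers they were 10, 9 and 11, and 7, 5 and 7 at 12 h. At 0 h they were 29, 15 and 41, and 1, 3 and 0. The log2 changes of Bid use the unstranded counts, in which the other strand had a larger part at 12 h. For the other 7 tested genes the share on the own strand was 94.2% to 99.6%. Pmaip1 encodes NOXA, which antagonises MCL1. It had 54 reads in all, 26 in the 12 KO and 28 in the 12 WT livers, and none in 4 libraries. With every gene kept in the fit, Pmaip1 passed in no comparison. These counts are at or near the limit of detection and give no direction.

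Bak1 encodes BAK, a pore former of the outer mitochondrial membrane. At 3 h it stood at 2.65, 5.88 and 2.65 CPM in KO livers and at 1.51, 2.44 and 1.10 CPM in WT livers. The KO livers were all above the WT livers, one of them far above. At 12 h it stood at 2.05, 4.18 and 1.40 CPM in KO livers and at 6.64, 1.67 and 3.11 CPM in WT livers, and the groups overlapped. Between 12 h and 0 h its log2 change was 0.36 in KO livers (95% interval -0.62 to 1.33) and 0.55 in WT livers (95% interval -0.34 to 1.45).

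Of the necroptosis genes, Ripk1 was called. Its level was 63.0, 46.4 and 59.0 CPM in KO livers at 12 h, against 31.5, 30.7 and 33.8 CPM in KO livers at 0 h. In WT livers it was 62.9, 64.5 and 63.8 CPM at 12 h, against 36.1, 30.5 and 30.6 CPM at 0 h. All 12 h livers were higher than all 0 h livers, as was common over all genes (41.1% in KO and 39.9% in WT livers had no overlap in either direction). KO 12 h replicate 2 was the lowest of them, and the WT 12 h livers lay within 2 CPM of each other. Mean levels at 12 h were 56.2 ± 8.66 CPM in KO livers and 63.7 ± 0.767 CPM in WT livers (SD, n = 3 in each group). The log2 change at 12 h was 0.80 in KO livers (SE 0.131, adjusted p = 2e-05) and 0.97 in WT livers (SE 0.130, adjusted p = 1.02e-06). At 3 h it was 0.21 in KO livers (adjusted p = 0.341) and 0.24 in WT livers (adjusted p = 0.235), not called.

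Ripk3, the kinase that joins RIPK1 to MLKL, had 24 reads over the 24 livers, 10 in KO and 14 in WT livers, with 0 to 3 per library and none in 8 libraries. At 12 h all 6 livers together gave 7 reads. With every gene kept in the fit, its adjusted p at 12 h was 0.604 in KO livers and 0.435 in WT livers. No library exceeded the worth of 3 reads, 0.373 to 1.05 CPM, so a difference in Ripk3 was not detectable at this depth. Mlkl, the executioner of necroptosis, was counted with 9 to 35 reads per library. It stood at 6.16, 2.21 and 6.29 CPM in KO livers and 3.16, 2.50 and 4.41 CPM in WT livers at 12 h, against 3.13 to 4.75 CPM in KO and 2.45 to 6.10 CPM in WT livers at 0 h. The times overlapped in both genotypes, and the log2 change of Mlkl at 12 h was 0.27 in KO livers (95% interval -0.51 to 1.06) and -0.13 in WT livers (95% interval -0.98 to 0.71).

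In counts, 4 of the 8 tested genes were called higher at 12 h in KO livers, where 15.1% of all 13204 genes were called higher and 28.8% called in either direction. In WT livers 4 of 8 were called higher at 12 h, against 13.4% of all genes higher and 25.6% in either direction. At 3 h the count was 1 of 8 in KO livers, against 5.11% of all genes called higher and 9.95% in either direction. In WT livers it was 1 of 8 at 3 h, against 7.28% and 14.1%. At 1 h none of the 8 was called in KO or WT livers, where 7.58% and 8.09% of all genes were called. DESeq2 called none of the 8. An unadjusted p under 0.05 was reached by 1 of 8 in each, and by 2816 (KO) and 2630 (WT) of all 13204 genes. The median log2 change over the 8 genes at 12 h was 0.58 in KO and 0.76 in WT livers, and over all tested genes 0.00 and -0.01. The responses of a genotype at 1, 3 and 12 h share their 0 h mice.

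**Figure D2:**
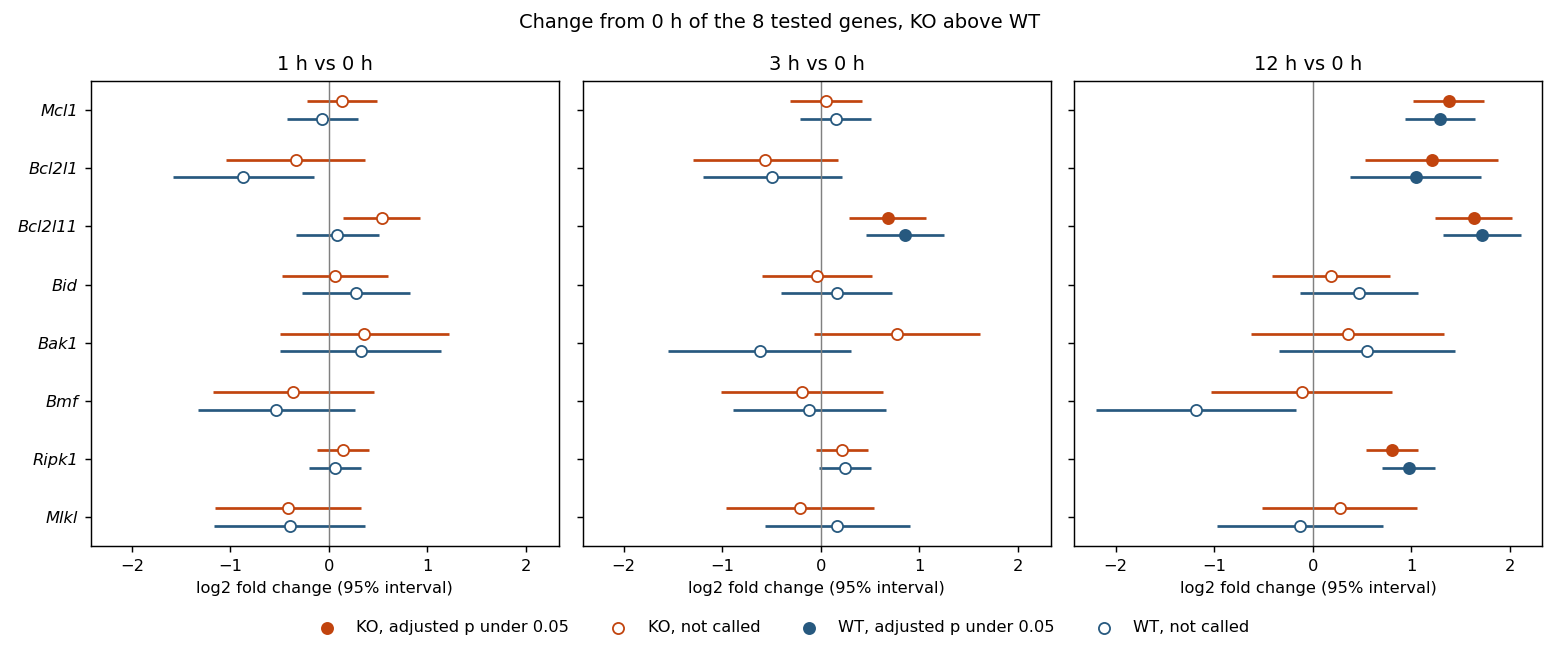
Log2 fold change from 0 h (x axis, with 95% interval) of the 8 tested genes at 1, 3 and 12 h, KO in orange above WT in blue; filled points have an adjusted p under 0.05. At 12 h Mcl1, Bcl2l1, Bcl2l11 and Ripk1 are filled in both genotypes, between 0.80 and 1.72, and at 3 h Bcl2l11 alone is filled.

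The comparison of KO with WT livers asks whether losing Egfr in hepatocytes altered these genes during the injury. Of the 8 tested genes edgeR called 0 at 0, 1, 3 and 12 h, where it called 0.0151%, 0.492%, 0.977% and 0.053% of all genes, and 0 in the average over the 4 times, where it called none of all genes. An unadjusted p under 0.05 was reached by 1 gene at 1 h (Bcl2l11) and 1 at 3 h (Bak1), and by none at 0 h, at 12 h or in the average. Of all 13204 tested genes, 1289 reached it at 1 h and 1377 at 3 h. DESeq2 also called 0 of the 8 genes in each comparison. Egfr, the targeted gene, was not called by edgeR in these comparisons either, which limits what the absence of calls can show. Over the alternatives, 1255 values of these genes for KO vs WT or for the difference of the responses held 0 calls, with a lowest adjusted p of 0.181.

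At 0 h the KO over WT log2 ratios of the 8 genes lay between -0.28 and 0.14, with 95% intervals that reached -1.15 and 0.80. At 12 h the ratio was -0.01 for Mcl1 (95% interval -0.36 to 0.34), 0.00 for Bcl2l11 (-0.38 to 0.38) and -0.19 for Ripk1 (-0.45 to 0.08). The interval of Bcl2l1 was wider, -0.71 to 0.61 around -0.05. For the thinly counted genes the ratios at 12 h were 0.84 for Bmf (-0.33 to 2.00), -0.47 for Bak1 (-1.46 to 0.52), -0.14 for Bid (-0.78 to 0.49) and 0.48 for Mlkl (-0.41 to 1.37), so changes of more than 1 log2 unit lie within the intervals of Bmf, Bak1 and Mlkl. A p that misses the threshold does not show that KO and WT livers were alike.

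The ratios with an unadjusted p under 0.05 lay at 1 and 3 h. Bcl2l11 at 1 h was higher in all KO livers (8.93 to 12.4 CPM) than in all WT livers (5.62 to 8.84 CPM), with a log2 ratio of 0.54 (95% interval 0.14 to 0.93, adjusted p = 0.272). Without the library labelled KO 1 h replicate 1, whose Egfr lay in the WT range, the ratio of Bcl2l11 was 0.46 (adjusted p = 0.435). Bak1 at 3 h had a log2 ratio of 1.12 (95% interval 0.22 to 2.02, adjusted p = 0.324), which was 0.69 without KO 3 h replicate 2 (adjusted p = 0.785). Libraries without overlap were found for 14.9% of all genes at 1 h and 15.5% at 3 h.

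The difference of the responses, KO minus WT, was called for 0 of the 8 genes at 1, 3 and 12 h by edgeR and by DESeq2, where edgeR called 0.454%, 0.151% and 0.0227% of all genes. An unadjusted p under 0.05 was reached by 1 gene at 3 h (Bak1), and by 1145 of all 13204 genes at that time. At 12 h the difference was 0.09 for Mcl1 (95% interval -0.41 to 0.59), 0.16 for Bcl2l1 (-0.78 to 1.11), -0.09 for Bcl2l11 (-0.64 to 0.47) and -0.17 for Ripk1 (-0.54 to 0.21). For Bmf it was 1.07 (-0.32 to 2.47), on the few reads given above.

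**Figure D3:**
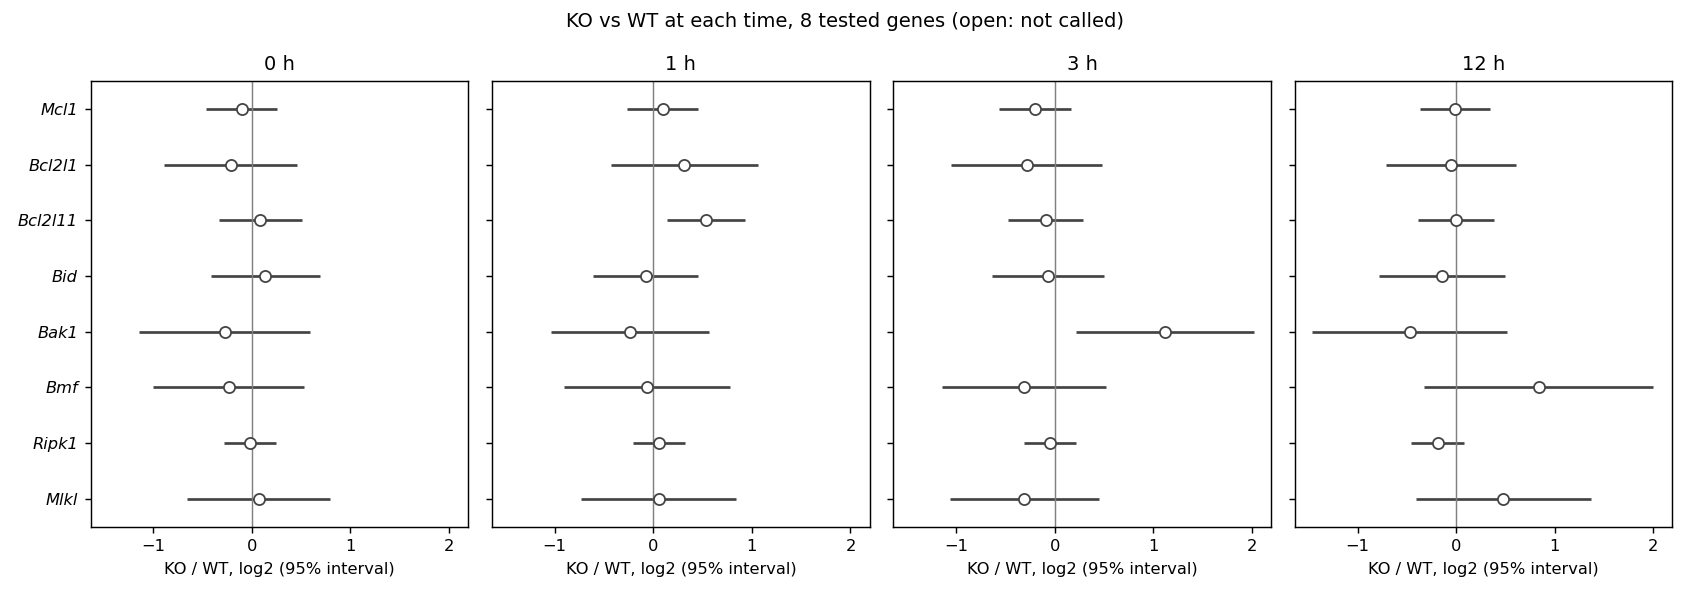
KO over WT log2 ratio (x axis, with 95% interval) of the 8 tested genes at 0, 1, 3 and 12 h; all points are open because none had an adjusted p under 0.05. The intervals of Bcl2l11 at 1 h and Bak1 at 3 h lie above 0, and those of Mcl1, Bcl2l11 and Ripk1 at 12 h are narrower than those of the other 5 genes.

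Across the 24 libraries the log2 levels of Mcl1 and Ripk1 had a Pearson r of 0.914, those of Bcl2l11 and Ripk1 of 0.885, those of Mcl1 and Bcl2l11 of 0.848 and those of Mcl1 and Bcl2l1 of 0.843. Over the 18 libraries from 0 to 3 h the same pairs had r of 0.423, 0.594, 0.353 and 0.0922, lower than over all 24. The genes whose pattern was most like that of Bcl2l11 were Tiparp (r 0.939, and 0.780 over the 18 libraries), Dyrk1a (0.931 and 0.797) and Dusp4 (0.927 and 0.770). For Ripk1 they were Tiparp (0.952 and 0.750), Maff (0.940 and 0.582) and Ppp1r15a (0.939 and 0.553). For Mcl1 they were Mafk (0.947 and 0.387), Rell1 (0.946 and 0.301) and Arhgef12 (0.945 and 0.324), and for Bcl2l1 Eepd1 (0.926 and 0.687), Aopep (0.909 and 0.771) and Bach2 (0.894 and 0.663). These values describe the 24 libraries, which share their times, groups and depth.

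A wider set of 80 cell death genes in 8 lists gives the surroundings; 67 were tested. At 12 h 11 were higher and 6 lower in KO livers (16.4% and 8.96%, against 15.1% and 13.7% of all genes), and 10 were higher and 7 lower in WT livers (14.9% and 10.4%, against 13.4% and 12.2%). The shares called higher are near those of all genes. The calls given for the genes named next held under every alternative, except where said.

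The list of MCL1 and BIM turnover and regulators had 4 of 11 genes higher and 1 lower in KO livers at 12 h, and 4 higher and 0 lower in WT livers. Jun, a subunit of AP-1 that can act on Bcl2l11, averaged 451 ± 49.4 CPM in KO livers at 12 h, against 11.3 ± 3.20 CPM at 0 h, and in WT livers 462 ± 58.4 CPM at 12 h, against 10.1 ± 2.67 CPM at 0 h (SD, n = 3 each), log2 changes of 5.33 and 5.50 (adjusted p = 1.29e-12 and 7.54e-13). It was already higher at 1 h, by 4.26 in KO and 4.43 in WT livers, and at 3 h by 4.45 and 4.04. Ddit3, the stress factor CHOP, rose by 3.91 in KO and 2.92 in WT livers at 12 h, and Atf4, its upstream regulator, by 1.48 and 1.26. Atf4 was also higher at 1 h, by 1.25 in KO and 1.03 in WT livers, and at 3 h, by 1.18 and 1.28. Ddit3 was higher at 1 h by 1.92 in KO and 1.16 in WT livers (leaving out WT 0 h replicate 1 ended the WT call, at an adjusted p of 0.0565). At 3 h it was higher by 1.69 in KO livers, while its change in WT livers was 0.54 (adjusted p = 0.260), and the difference of the responses was 1.15 (adjusted p = 0.383). Usp9x, a deubiquitinase that stabilises MCL1, fell by 0.41 in KO livers at 12 h (adjusted p = 0.00208), and its change in WT livers was -0.20 (adjusted p = 0.139).

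Among apoptosome genes and caspases, 2 of 11 were higher and 2 lower in KO livers at 12 h, and 1 higher and 1 lower in WT livers. Xiap, a caspase inhibitor, averaged 83.6 ± 8.58 CPM in KO livers at 12 h, against 189 ± 3.26 CPM at 0 h, and in WT livers 70.5 ± 4.85 CPM at 12 h, against 179 ± 10.6 CPM at 0 h, log2 changes of -1.18 and -1.34 (adjusted p = 2.23e-10 and 1.67e-11). At 3 h it fell by 0.81 in KO and 0.86 in WT livers. At 1 h it fell by 0.64 in KO livers (adjusted p = 5.58e-05), its change in WT livers was -0.21 (adjusted p = 0.212), and the difference of the responses was -0.43 (adjusted p = 0.188). Death receptors and adaptors had 2 of 6 lower in KO and 3 of 6 lower in WT livers at 12 h, and none higher. Cflar, which encodes the caspase-8 inhibitor c-FLIP, fell by 1.04 in KO and 0.60 in WT livers. At 3 h it fell by 0.49 in WT livers and by 0.36 in KO livers, where the call (adjusted p = 0.0477) was lost in 12 of 15 alternatives, with each of the 6 libraries left out among them. Fadd, the adaptor of death receptors, fell by 1.27 in KO livers (adjusted p = 0.0192, lost in 4 of 15 alternatives) and by 2.13 in WT livers. Tnfsf10, the ligand TRAIL, fell by 1.48 in WT livers at 12 h, and its change in KO livers was -0.95 (adjusted p = 0.103). At 3 h Tnfsf10 fell by 1.23 in WT livers (adjusted p = 0.0102). Leaving out WT 0 h replicate 3, WT 3 h replicate 3, or WT 3 h replicates 2 and 3 together ended that call, with a highest adjusted p of 0.334. Its change in KO livers at 3 h was -0.75 (adjusted p = 0.228), and the difference of the responses was 0.48 (adjusted p = 0.860).

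Of the 14 RIPK1 regulators 2 were higher and 1 lower in KO livers at 12 h, and 2 higher and 0 lower in WT livers. Tab2, an adaptor of the kinase TAK1, was higher by 0.56 in KO livers at 1 h, by 0.68 in KO and 0.75 in WT livers at 3 h, and by 0.58 in KO livers at 12 h. Its WT value at 1 h, 0.36 (adjusted p = 0.0291), lost its call in 7 of 15 alternatives. Its WT value at 12 h, 0.34 (adjusted p = 0.0207), was -0.02 with scaling by library size alone. That call was also lost with no low-count filter and without WT 0 h replicate 1 or 2 or WT 12 h replicate 2 or 3. Of the 8 other inputs and partners of necroptosis, edgeR and DESeq2 called 0 at 12 h in either genotype. In each genotype 1 had an unadjusted p under 0.05, as had 5177 (KO) and 4747 (WT) of all 13204 tested genes.

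The other pro-apoptotic BCL2 relatives had 2 of 8 higher and 0 lower in KO livers at 12 h, and 1 higher and 1 lower in WT livers. Bbc3, the BH3-only gene of PUMA, averaged 2.93 ± 1.79 CPM in KO livers at 12 h, against 2.19 ± 0.159 CPM at 0 h, and in WT livers 5.73 ± 0.840 CPM at 12 h, against 2.19 ± 0.513 CPM at 0 h, where the log2 change was 1.40 (adjusted p = 0.00137); 80.6% of its stranded reads lay on its own strand. At 1 h Bbc3 fell by 1.78 in KO livers (adjusted p = 0.00502, and 0.0519 without KO 1 h replicate 2). Its change in WT livers at 1 h was -0.71 (adjusted p = 0.278), and the difference of the responses was -1.07 (adjusted p = 0.495). Bcl2l13, a mitochondrial relative, rose by 0.71 in KO livers, and its change in WT livers was 0.27 (adjusted p = 0.188). The other anti-apoptotic relatives had 0 of 2 called in KO livers and 1 of 2 lower in WT livers, Bcl2l2 (BCL-w), which fell by 0.79, and whose change in KO livers was -0.49 (adjusted p = 0.0965). Of 7 genes of other lytic death, 1 was higher in KO livers, and 2 were higher and 1 lower in WT livers. The 7 include Gsdme, which was called in neither genotype. Only 1.85% of its stranded reads lay on its own strand, so its unstranded count is mostly of the other strand. Casp4, encoding the inflammatory caspase-11 of mice, averaged 4.17 ± 0.708 CPM in KO livers at 12 h, against 0.732 ± 0.498 CPM at 0 h, and in WT livers 4.20 ± 0.632 CPM at 12 h, against 1.04 ± 0.648 CPM at 0 h, log2 changes of 2.43 and 2.10.

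For genes called in 1 genotype, the difference of the responses at 12 h, KO minus WT, was 0.53 for Tnfsf10 (adjusted p = 0.829), -0.99 for Bbc3 (adjusted p = 0.479) and 0.30 for Bcl2l2 (adjusted p = 0.800). It was 0.44 for Bcl2l13 (adjusted p = 0.469) and -0.21 for Usp9x (adjusted p = 0.651). Of the 67 tested genes of these lists, edgeR and DESeq2 called 0 for this difference. An unadjusted p under 0.05 was reached by 11 of the 67, and by 1350 of all 13204 tested genes.

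**Figure D4:**
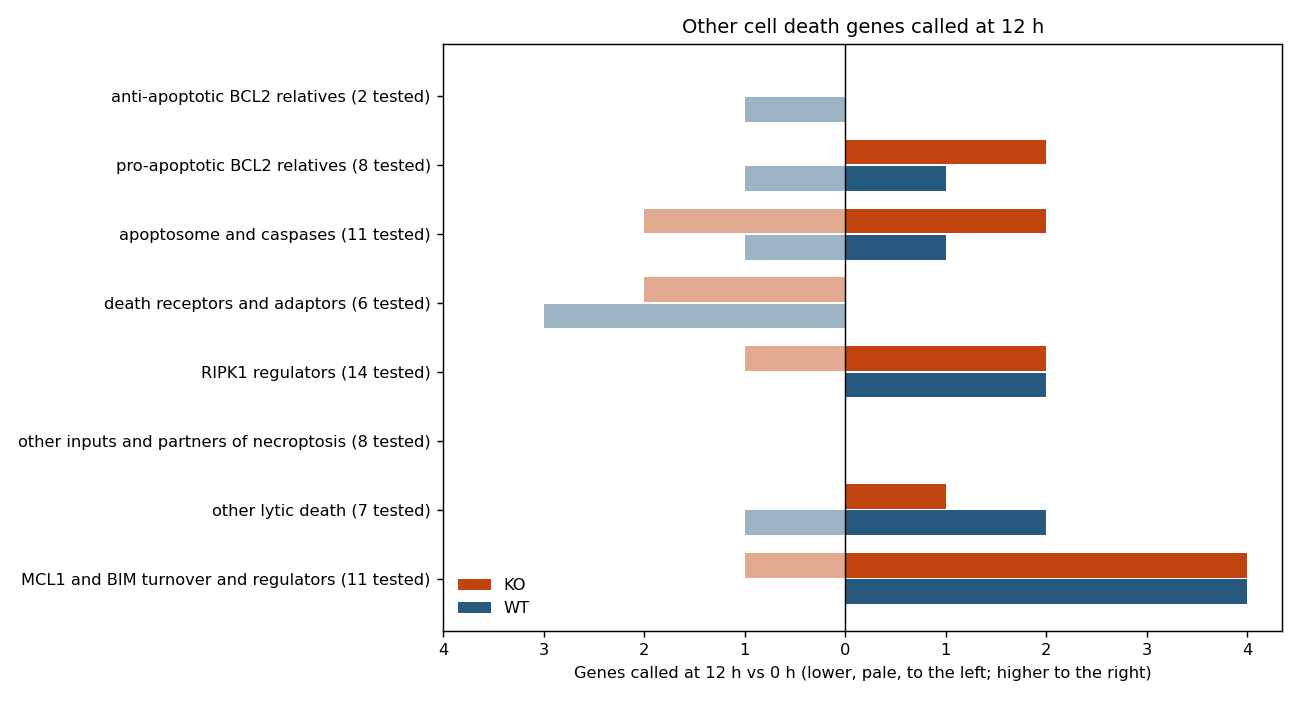
Number of genes in each of 8 cell death lists called at 12 h against 0 h (x axis; higher to the right, lower in pale colour to the left), KO in orange above WT in blue. The turnover and regulator list has 4 genes higher in each genotype, and death receptors and adaptors have none higher and 2 (KO) or 3 (WT) lower.

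Between KO and WT livers, Foxo3 was called by edgeR at 1 h among these lists (log2 ratio 0.91, adjusted p = 0.00892), a call that ended when WT 1 h replicate 3 or KO 1 h replicate 2 was left out and with only the groups compared (highest adjusted p = 0.121). DESeq2 called 2 of the 67 at 1 h, 1 of them in the list of apoptosome genes and caspases. At 0 and 12 h edgeR and DESeq2 called 0 of the 67. An unadjusted p under 0.05 was reached by 8 of them at each time, and by 1072 (0 h) and 1362 (12 h) of all 13204 tested genes.

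Other cells' markers were summed in the same libraries. The summed neutrophil list (0 of 7 genes tested) was 3.93 to 4.19 CPM in KO livers at 12 h, against 0.621 to 0.746 CPM at 0 h, and in WT livers 3.37 to 10.8 CPM at 12 h, against 0.387 to 1.89 CPM at 0 h. Of its genes S100a9 was at 0 in KO livers and Ly6g and Mmp8 in WT livers at 0 h, and none was at 0 at 12 h. The cholangiocyte list summed to 33.9 to 126 CPM in KO livers at 12 h, against 18.8 to 20.6 CPM at 0 h, and in WT livers 109 to 221 CPM at 12 h, against 19.1 to 24.6 CPM at 0 h, with 1 of 2 tested genes higher in each genotype and Krt7 at 0 in WT livers at 12 h. The Kupffer cell list summed to 65.8 to 93.6 CPM in KO livers at 12 h, against 53.3 to 70.8 CPM at 0 h, and in WT livers 78.1 to 96.5 CPM at 12 h, against 63.7 to 127 CPM at 0 h, with 2 of 8 tested genes higher in KO livers and 1 lower in WT livers. The recruited monocyte list summed to 8.35 to 15.0 CPM in KO livers at 12 h, against 6.86 to 9.82 CPM at 0 h, and in WT livers 11.2 to 12.0 CPM at 12 h, against 10.7 to 18.7 CPM at 0 h, with 1 of 2 tested genes higher in KO livers; Ly6c2 was at 0 in KO livers at both times and Chil3 in WT livers at 12 h. The stellate cell list summed to 167 to 194 CPM in KO livers at 12 h, against 124 to 171 CPM at 0 h, and in WT livers 183 to 236 CPM at 12 h, against 141 to 188 CPM at 0 h, with 1 of 6 tested genes higher in KO and 2 in WT livers. Of 6 sinusoidal endothelial markers 1 was higher in each genotype, of 5 red blood cell markers 1 was lower in KO livers, and the T and NK cell and B cell lists, with 0 genes tested, summed to at most 1.27 and 2.79 CPM in any library. The part of these cells in the rises of Mcl1, Bcl2l1, Bcl2l11 and Ripk1 was not tested.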

How the data were processed

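The 24 libraries are livers of individual mice, per the labels' protocols, extracted with TRIzol and sequenced on an AVITI instrument. Per the submitters' processing notes, STAR was run on build mm39; its version and the annotation counted were not given in the sources used here. The authors deposited raw counts per gene in 3 columns, unstranded, gene strand and opposite strand. The unstranded counts of 50657 genes were used; the 4 lines that name no gene, which held 77.5% to 82.4% of each library's reads, were left out of library sizes. Times of 6 and 24 h named in the design are not analysed here.

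The counts were fitted with edgeR 4.0.16 in R 4.3.3: filterByExpr left 13204 genes, among them 8 of the 10 described, sizes were scaled by TMM, and a robust quasi-likelihood model with 1 mean per group was fitted to all 24 libraries. The contrasts took KO over WT at each time and averaged, each time vs 0 h within a genotype, and the difference of these responses. Levels are TMM-scaled CPM without a prior count. The members and lists were chosen with earlier results of these data known. The text names every member; among the other cell death genes it names those called at 12 h, and at earlier times where they were also called, whose call held under every alternative, and those called between genotypes, except 1 result that is not reported here. The genes most like a member have the highest Pearson r of log2 CPM over 24 libraries (prior count 2) among genes of at least 5 CPM on average.

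Alternatives were scaling by RLE or by library size alone, keeping all genes or those with at least 1 CPM in 3 libraries, the replicate block, gene-strand counts, ribosomal loci removed, DESeq2 1.42.0, only the groups compared, WT 3 h replicates 2 and 3 left out, and each library left out in turn. The fit was tested on simulated data. Between replicates, counts differed by 2.23 to 21.6 times their counting variance. Promoters come from RefSeq tables of build GRCm38.p6, which is not the build of the files, so no gene position in mm39 is given.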

Additional observations from a re-analysis of the deposited data

Results flagged for a closer look

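The response of Foxo3 at 1 h differed between the genotypes by a test of the difference itself. Foxo3 encodes a transcription factor that can induce Bcl2l11. Its level averaged 57.9 ± 7.87 CPM in KO livers at 1 h, against 37.0 ± 1.78 CPM at 0 h, and in WT livers 30.5 ± 9.54 CPM at 1 h, against 46.5 ± 4.09 CPM at 0 h (SD, n = 3 each). The log2 change at 1 h was 0.65 in KO livers (adjusted p = 0.0186) and -0.60 in WT livers (adjusted p = 0.0323), and their difference, KO minus WT, was 1.25 (adjusted p = 0.0185, edgeR's quasi-likelihood test). KO over WT at 1 h was 0.91 (adjusted p = 0.00892). This call was lost in 3 of 15 alternatives, with a highest adjusted p of 0.121. The KO call at 1 h was lost in 4 of 15, without KO 0 h replicate 1 or 3 or KO 1 h replicate 1 or 2 (highest adjusted p = 0.0709). The WT call at 1 h was lost in 6 of 15, without any WT 0 h library, without WT 1 h replicate 1 or 3, or with only the groups compared (highest adjusted p = 0.214). The call of the difference was lost in 5 of 21 alternatives, without WT 0 h replicate 1, KO 0 h replicate 2, KO 0 h replicate 3, WT 1 h replicate 1 or KO 1 h replicate 2, with a highest adjusted p of 0.0605. Without the library labelled KO 1 h replicate 1, whose Egfr lay in the WT range, the Foxo3 difference was 1.16 (adjusted p = 0.035). It was among 67 tested genes of the cell death lists, of which it was the 1 that edgeR called for a difference of responses at 1 h. Of all tested genes edgeR called 0.454% for it. DESeq2 called 2 of the 67, 1 of them in the list of apoptosome genes and caspases.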

How the results depend on the processing

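The calls of Mcl1, Bcl2l11 and Ripk1 at 12 h in both genotypes and of Bcl2l11 at 3 h in WT livers held under every alternative. Of 1982 member values under alternatives, 0 with a call changed sign, 9 lost and 5 gained a call. A further 146 values, not called in either setting, changed sign. At 1 h in WT livers the number of members called was 0, and 1 with no low-count filter or with only the groups compared (Bcl2l1). Leaving out 1 library gave 0 to 1 members called in KO livers at 1 h and at 3 h, 3 to 4 in KO livers at 12 h, against 3 to 5 in WT livers at 12 h. Scaling by library size alone turned Tab2 in WT livers at 12 h to -0.0241 (adjusted p = 0.896). With it, 1265 genes were higher and 3536 lower at 12 h in KO livers, against 1989 and 1813 with TMM, and 939 and 4385 in WT livers, against 1772 and 1609. The replicate block changed no call of a member (Bmf in WT livers at 12 h -1.18, adjusted p = 0.0893). Same-numbered libraries of different groups had a mean correlation of 0.00834 (84 pairs, 5 over 0.1), and other-numbered ones of -0.00417 (168 pairs, 9 over 0.1). No pairing by number was seen, which does not show that there was none. Depth limits Ripk3, Pmaip1, Bmf, Bak1, Bid and Mlkl.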
